A study of Mus musculus with 6 samples.

Results

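The genes described here carry cells through mitosis, from the cyclin-dependent kinase that starts it to the proteins that split the cell in its last step. The list of 40 genes was chosen by name as mitosis and spindle genes, with earlier results of these data known. Of the 40, 39 had a probe set paired with a single gene symbol, out of 18193 genes so covered on the array. Ccnb1 is not analysed here. Where a gene had several such probe sets, the brightest by its mean over the 6 arrays on the log2 scale was used. The 39 genes were measured in 2 populations of mouse lung cells, with 3 biological replicates of each and 1 array per replicate. The E18 group held Muc1+/Pdpn+ cells purified by cell sorting from embryonic lungs of day 18 (E18). The series names them BP, bipotent progenitors. The adult group held Lyz2+/EpCAM+ cells from adult lungs, which it calls ATII, the surfactant-secreting alveolar type II cells. No treatment or altered gene is named for either group, and strain, sex, adult age in weeks and pooling of animals are not given in the sources used here. Age and sorted population differ together, so their contributions cannot be told apart.

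Entry into mitosis is driven by Cdk1 bound to B-type cyclins, and the Aurora and Polo-like kinases then build the spindle. Kinetochores tie chromosomes to spindle microtubules, the spindle checkpoint holds the cell until all are attached, and the anaphase-promoting complex (APC/C), a ubiquitin ligase, then releases the chromosomes and ends mitosis. Most of these transcripts accumulate only in cells that are about to divide, which makes them common measures of proliferation. In the lung, epithelial progenitors divide before birth, whereas adult type II cells divide rarely unless the alveolus is injured.

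Mitosis and spindle genes were lower in the adult cells, with genes past the threshold in 7 of the 8 roles into which they were grouped. Of 39 genes, all of which passed the filter on dim signals, 19 fell in the adult arrays, 0 rose and 20 did not pass at an adjusted p under 0.05 (limma, Benjamini-Hochberg over 13335 genes tested, two-sided, as for every adjusted p below unless said otherwise). Over all genes tested 4.57% fell and 1.41% rose by the same rule. The difference, adult minus E18 on the log2 scale, was below 0 for 38 of the 39, with a median of -2.11, against a median of -0.17 and a share below 0 of 59.0% over all genes. At least 2-fold lower means were found for 34 of the 39 genes and at least 4-fold lower means for 21, beside 18.7% and 7.11% of all genes. For 34 of the 39 every adult array lay under every E18 array, which was so for 18.8% of all genes, and for 0 of the 39 every adult array lay above, against 10.1% of all genes. Such array values in a mixed or sorted population cannot tell fewer dividing cells from less of each transcript per cell.

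**Figure D1:**
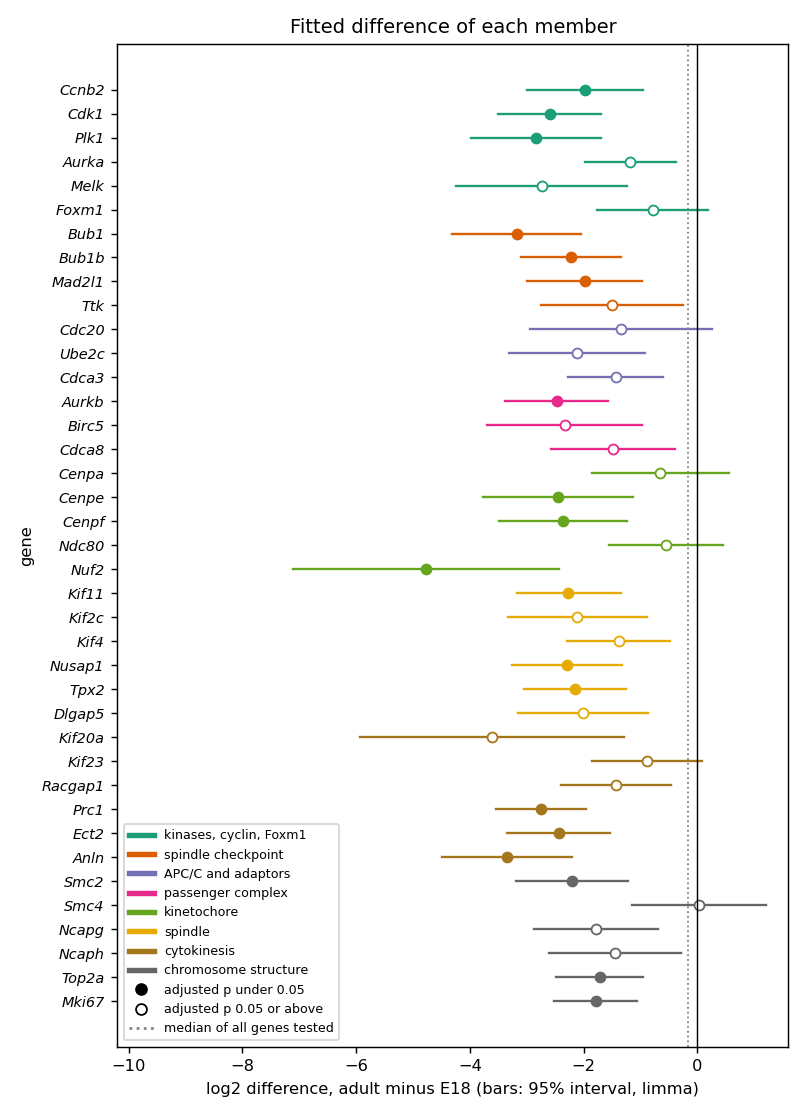
Log2 difference of each of the 39 genes, adult minus E18, on the horizontal axis, with genes on the vertical axis in order of role; points are limma estimates, bars their 95% intervals, filled points the 19 genes at an adjusted p under 0.05 and the dotted line the median of all genes tested (-0.17). Every point except that of Smc4 (0.02) lies left of 0, and Nuf2 lies farthest left, at -4.78.

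The number of genes that passed depended on single arrays, while the size of the shift moved less. It was 0 without E18 replicate 1, 0 without E18 replicate 2, 10 without E18 replicate 3, 8 without adult replicate 1, 2 without adult replicate 2 and 28 without adult replicate 3. Over all genes the share lower and past the threshold in these fits was 0.28%, 0.273%, 2.31%, 3.45%, 1.41% and 15.8%, in the same order. At an unadjusted p under 0.05 the members numbered 30, 30, 34, 35, 31 and 33 of 39 in those fits of limma, beside 11.8%, 12%, 19.8%, 19.8%, 18% and 36.5% of all genes. Their median difference lay between -2.34 and -1.91 in all 6. E18 replicates 1 and 2 were close to each other, and with their average counted as 1 sample 0 members passed and 30 had an unadjusted p under 0.05, beside 0.307% of all genes lower and past the threshold and 12.5% at that unadjusted p.

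Array by array, the genes were high in E18 replicates 1 and 2, somewhat less so in E18 replicate 3, and low in the adult arrays, least so in adult replicate 3. With the 6-array mean of each gene subtracted, the median member stood at 1.12, 1.25 and 0.63 in the E18 arrays, in replicate order. It stood at -1.16, -1.24 and -0.60 in the adult arrays. E18 replicate 3 was the lowest E18 array for 32 of the 39 genes, and adult replicate 3 was the highest adult array for 25. The median rank of the members among all probe sets of an array was the 84.6th, 85.5th and 82.0th percentile in the E18 arrays and the 63.9th, 65.8th and 67.4th in the adult arrays. Most of them were still at or above the floor in the adult arrays. That floor, the 40th percentile of the array, is a rank among its probe sets and not a detection call. All 39 genes were at or above it in every E18 array, and 36, 38 and 38 were so in adult replicates 1, 2 and 3. Spread between arrays was wider among the adult samples, where the median SD of a gene was 0.70 against 0.29 in E18, and it was the wider of the 2 for 33 of 39 genes.

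**Figure D2:**
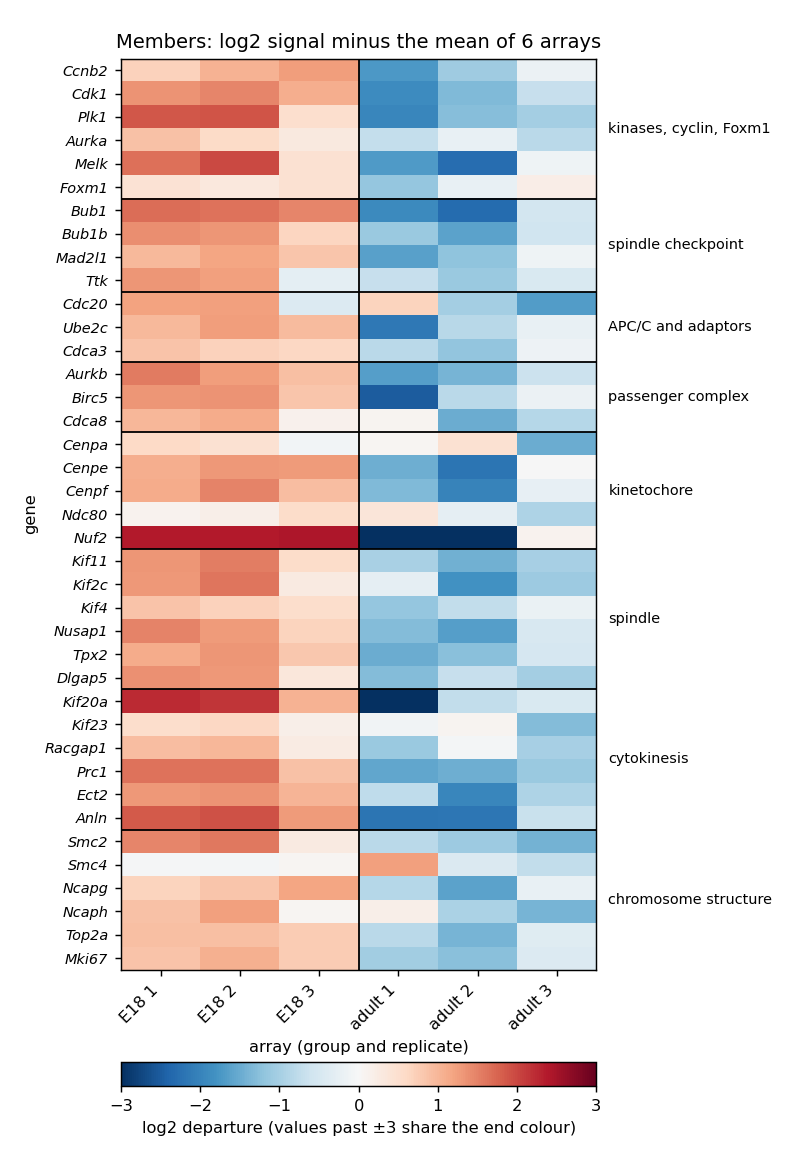
Each cell is the log2 signal of a gene (rows, ordered by role) on an array (columns) minus that gene's mean over the 6 arrays, red above and blue below it. The E18 columns are red for nearly every gene, E18 replicate 3 paler than the other two, and the adult columns mostly blue, with adult replicate 3 palest and Smc4 red in adult replicate 1.

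Several features of the arrays moved with the groups or with single replicates, and their part in these results was not tested. The median signal was 70.2 to 112 over the 6 arrays. Poly-A spike controls averaged 13.66 and 14.17 (log2) in replicate 3 of E18 and adult, against 6.87 to 9.61 in the other arrays. The 3′ probe set of Gapdh exceeded the 5′ one by 4.62 on the log2 scale in adult replicate 1 and by 2.23 to 2.63 in the others, and for beta-actin the excess was 3.55 against 0.44 to 0.64. Of the sort genes, Lyz2, on which the adult sort was based, was lower in adult arrays (-2.86, SE 0.25, adjusted p = 0.00303), as was Pdpn (-2.27, SE 0.29, adjusted p = 0.00924), which marks the E18 sort. Epcam stood at 10.69, 11.31 and 9.26 in E18 and 7.85, 8.50 and 10.68 in adult arrays (-1.41, SE 0.81, adjusted p = 0.359), and Muc1 did not pass either (-2.07, SE 0.83, adjusted p = 0.206). Of 9 epithelial markers tested 0 passed, and the list summed to 29818 to 38548 in E18 and to 4113, 6017 and 64873 in adult replicates 1, 2 and 3, with Nkx2-1 under the floor in all E18 arrays. Of 12 alveolar type I markers 7 fell (67023 to 94521 against 15069 to 22686). Of 11 type II cell markers measured 0 passed in either direction, and the summed signal of the list was 44203 to 77488 in E18 and 55715 to 88073 in adult arrays. Of 11 mesenchymal markers tested 10 fell, from a summed signal of 44389 to 67087 in E18 to 1521 to 10529 in adult arrays, with Twist1 under the floor in all arrays. Of 12 endothelial markers 4 fell (8262 to 25561 against 3435 to 4718) and of 5 mesothelial markers 3 fell (5322 to 7313 against 366 to 775). These counts include Tie1 and Wt1, which were under the floor in all adult arrays and so passed the filter only through the E18 group. Of 13 leukocyte and lymphocyte markers 3 rose, from 27703 to 36555 in E18, where Cd3e was under the floor in all arrays, to 152689, 109761 and 40563 in adult replicates 1, 2 and 3. Airway markers summed to 22548 to 29174 in E18, to 114457 in adult replicate 3 and to 20767 and 22199 in adult replicates 1 and 2, and of 8 tested 0 passed. Of 6 erythroid markers tested 0 passed (741 to 1449 in E18, 433 to 631 in adult arrays, with Hba-a1 under the floor in all arrays). Slc4a1 and Klf1, which are among the 6, were under the floor in all adult arrays and so passed the filter only through the E18 group. Macrophage markers (0 of 11 past the threshold) summed to 39998 to 67688 in E18 and 62449 to 100360 in adult arrays.

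Within the third replicates alone, 1 array against 1, all 39 genes were lower in the adult array, with a median of -1.29. Between the means of replicates 1 and 2 the median was -2.49 and 38 of 39 were lower. The difference was the larger in replicates 1 and 2 for 34 genes. The 5 genes with a more negative difference in the third replicates, named after their values were seen, were Cenpa, Ndc80, Kif23, Smc4 and Ncaph. Tested in replicates 1 and 2 alone 30 of 39 members fell, where 16.5% of all genes did, and with the third replicates as a block in the fit of all arrays 19 fell, where 5.21% of all genes did.

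**Figure D3:**
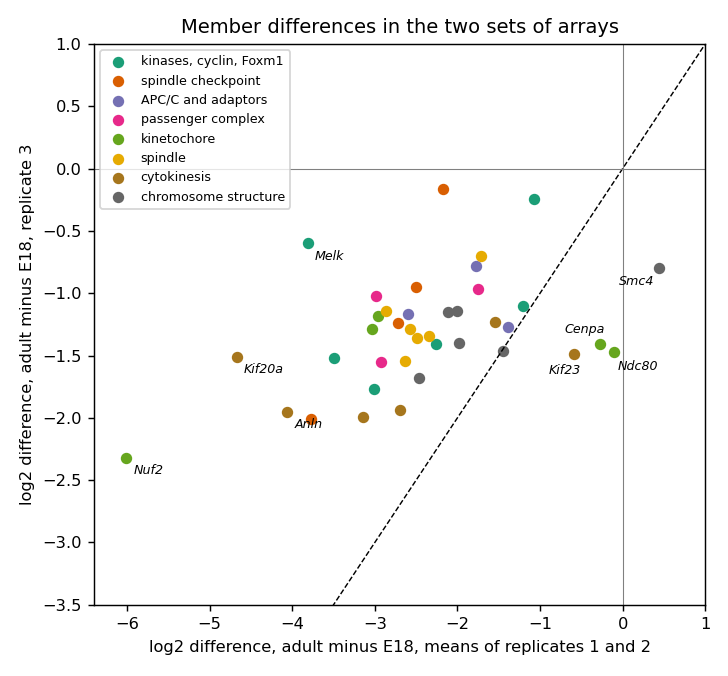
Each point is a gene, with the log2 difference between the means of replicates 1 and 2 (adult minus E18) on the horizontal axis and that between the third replicates on the vertical axis; colours give the role and the dashed line marks equal differences. All 39 points lie below 0 on the vertical axis, and 34 lie above the dashed line, with a smaller difference in the third replicates.

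Promoters of the genes were examined because genes of late cell cycle phases are known to share 2 promoter elements, the CCAAT box bound by NF-Y and the cell cycle genes homology region (CHR), bound by the MuvB complexes with which B-Myb and Foxm1 act. Windows of 300 bases, from 250 before to 50 after a RefSeq start (GRCm38.p6), were found for 33 of the 39 genes, 35 windows in all, and were searched on both strands for CCAAT and for the CHR letters TTTGAA and TTTAAA. Overlapping matches were each counted. TTTGAA was present in 27 of the 35 windows (77.1%), against 11.9% of 13642 windows of other genes tested and 17.9% of all 32851 windows. TTTAAA was present in 22.9% of the members' windows and 13.2% of all, and CCAAT in 74.3% and 37.4%. Both CCAAT and either CHR form were in 71.4% of the members' windows and 10.7% of all. Within 50 bases of the start on either side, either CHR form was in 26 of the 35 windows (74.3%) and in 8.28% of all windows. The share of windows with either CHR form was 78.9% for the members that fell and 87.5% for those that did not pass. The E2F letters TTTGGCGC and TTTCCCGC were in 0 and 1 of the 35 windows, and in 0.514% and 1.07% of all. A match is a description of the letters and not a measured site.

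The 6 genes with the largest differences among those with both elements upstream of their most upstream start were Plk1, Cdk1, Ect2, Cenpf, Kif11 and Smc2, all of which fell. Their 250 bases before the start are shown because they carry these elements, 5′ to 3′ in the direction of the gene, with matches to CCAAT or to either CHR form on either strand in capitals. A match on the other strand reads as ATTGG for the CCAAT box or as TTCAAA for the first CHR form. They lie at chr7:122159185-122159434, plus strand (Plk1), chr10:69352913-69353162, minus strand (Cdk1), chr3:27153879-27154128, minus strand (Ect2), chr1:189688087-189688336, minus strand (Cenpf), chr19:37376132-37376381, plus strand (Kif11) and chr4:52438971-52439220, plus strand (Smc2) of GRCm38.p6, upstream of that start.
Plk1: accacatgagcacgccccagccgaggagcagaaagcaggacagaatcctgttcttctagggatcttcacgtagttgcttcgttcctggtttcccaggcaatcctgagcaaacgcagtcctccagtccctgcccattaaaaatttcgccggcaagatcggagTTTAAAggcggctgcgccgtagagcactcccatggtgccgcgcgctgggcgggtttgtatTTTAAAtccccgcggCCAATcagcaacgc
Cdk1: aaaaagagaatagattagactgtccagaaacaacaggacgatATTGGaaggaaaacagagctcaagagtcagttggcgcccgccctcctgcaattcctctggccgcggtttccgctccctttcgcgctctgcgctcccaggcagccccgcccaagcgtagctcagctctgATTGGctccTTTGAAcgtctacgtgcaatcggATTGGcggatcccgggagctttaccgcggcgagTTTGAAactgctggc
Ect2: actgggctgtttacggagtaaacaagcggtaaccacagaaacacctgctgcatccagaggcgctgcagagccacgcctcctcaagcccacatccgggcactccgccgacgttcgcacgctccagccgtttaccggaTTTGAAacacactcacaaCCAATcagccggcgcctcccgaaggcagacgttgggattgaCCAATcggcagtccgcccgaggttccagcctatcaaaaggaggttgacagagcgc
Cenpf: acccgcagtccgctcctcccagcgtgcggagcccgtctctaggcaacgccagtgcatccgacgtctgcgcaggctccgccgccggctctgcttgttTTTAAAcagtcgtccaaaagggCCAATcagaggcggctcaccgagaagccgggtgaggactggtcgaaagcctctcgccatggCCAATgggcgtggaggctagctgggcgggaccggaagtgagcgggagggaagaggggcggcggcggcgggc
Kif11: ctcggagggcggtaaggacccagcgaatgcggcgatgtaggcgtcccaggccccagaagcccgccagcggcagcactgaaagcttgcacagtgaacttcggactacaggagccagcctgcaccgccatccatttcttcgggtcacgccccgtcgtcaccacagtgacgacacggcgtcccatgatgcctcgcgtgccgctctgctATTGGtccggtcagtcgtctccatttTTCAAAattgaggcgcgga
Smc2: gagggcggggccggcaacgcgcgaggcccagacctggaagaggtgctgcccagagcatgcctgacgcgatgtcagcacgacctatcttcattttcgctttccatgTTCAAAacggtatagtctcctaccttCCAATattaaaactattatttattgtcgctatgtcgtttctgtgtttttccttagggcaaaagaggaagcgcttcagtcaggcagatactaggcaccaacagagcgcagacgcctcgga
In Cdk1 the element nearest the start was TTTGAA, with its first base 15 bases before it, and 3 CCAAT matches lay upstream. In Kif11 a CHR match began 19 bases and a CCAAT match 45 bases before the start. In the stretch of Plk1 shown, CCAAT began 14 bases and the nearer TTTAAA 29 bases before the start. A TTTGAA match of Plk1 lay within the 50 bases after the start, which are not shown. The CHR matches of Ect2, Cenpf and Smc2 in these stretches were farther away, beginning 114, 154 and 145 bases before the start. Each of these genes also had a TTTGAA match within the 50 bases after the start, outside the stretches shown.

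The kinases, the cyclin and the transcription factor that bring cells into mitosis were lower in the adult arrays, with 3 of 6 genes past the threshold and a median difference of -2.29. Cdk1, the kinase that triggers mitosis, stood at 10.23, 10.34 and 9.97 (log2 signal) in E18 replicates 1, 2 and 3 and at 6.99, 7.55 and 8.20 in adult replicates 1, 2 and 3. No adult array reached the lowest E18 array, and the fall was 6.05-fold (-2.60, SE 0.39, adjusted p = 0.0126). Plk1, the Polo-like kinase that matures centrosomes and promotes mitotic entry, was at 9.94, 9.96 and 8.57 in the E18 and 6.11, 6.79 and 7.05 in the adult arrays, in replicate order as for each gene below. E18 replicate 3 was the lowest of the group, still above all adult arrays, and Plk1 fell 7.15-fold (-2.84, SE 0.50, adjusted p = 0.0213). Ccnb2, a B-type cyclin that activates Cdk1, was at 9.85, 10.19 and 10.40 against 7.44, 8.08 and 8.98. It fell 3.93-fold (-1.98, SE 0.44, adjusted p = 0.0452), with adult replicate 3 nearest to the E18 arrays.

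The other 3 genes of this group did not pass. Their arrays did not overlap either, which was so in this direction for 18.8% of all genes. For Foxm1 this was narrow, with 8.49 in adult replicate 3 and 8.59 in E18 replicate 2. Melk, a kinase of dividing and progenitor cells, differed by -2.74 (95% interval -4.25 to -1.24, adjusted p = 0.0515), with adult arrays at 6.68, 6.08 and 8.24. The centrosomal kinase Aurka differed by -1.18 (95% interval -1.97 to -0.38, adjusted p = 0.097). Foxm1, which activates many genes of this list, differed by -0.79 (95% interval -1.77 to 0.19, adjusted p = 0.325) in the probe set with the highest signal. When each of 23674 probe sets was tested separately, a choice made after the data were seen, another probe set of Foxm1 passed (-3.60, SE 0.61, adjusted p = 0.0189 over probe sets). That probe set was at 6.42, 6.80 and 6.88 in the E18 arrays and at 3.24, 2.72 and 3.33, under the floor, in all adult arrays, so it passed the filter only through the E18 group and was at least 1.92-fold lower against the floor.

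Spindle checkpoint genes fell in 3 of 4 cases, with a median of -2.10. Bub1, a checkpoint kinase at the kinetochore, stood at 9.99, 9.95 and 9.77 in the E18 arrays and at 6.39, 6.01 and 7.76 in the adult arrays. The E18 arrays lay close together and adult replicate 3 stood above the other adult arrays, and Bub1 fell 9.07-fold (-3.18, SE 0.49, adjusted p = 0.0142). A second Bub1 probe set did not pass when tested separately (-1.52, adjusted p = 0.134). Bub1b, which encodes the checkpoint protein BubR1, was at 11.15, 11.07 and 10.39 against 8.63, 8.14 and 9.15 and fell 4.68-fold (-2.23, SE 0.38, adjusted p = 0.0197). Its other tested probe set fell too (-2.68, adjusted p = 0.0276 over probe sets). With the mean of its probe sets the difference of Bub1b was -1.35 and did not pass (adjusted p = 0.0945). Here and below such means take in dim probe sets that did not pass the filter, for Bub1b one with a difference of 0.86. Mad2l1, the inhibitor of APC/C that the checkpoint releases, was at 10, 10.22 and 9.86 against 7.41, 7.82 and 8.92 (-1.98, SE 0.44, adjusted p = 0.0427). The groups of these 3 genes did not overlap. Ttk, the kinase that starts the checkpoint signal, differed by -1.51 (95% interval -2.75 to -0.26, adjusted p = 0.158), and between the arrays of replicate 3 the difference was -0.16.

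Genes of the APC/C and of ubiquitin ligase adaptors did not pass, with 0 of 3 and differences of -2.12 to -1.35. Ube2c, the ubiquitin-conjugating enzyme of the APC/C, was at 9.50, 9.78 and 9.48 in the E18 and 6.37, 7.70 and 8.31 in the adult arrays. The adult arrays lay under the E18 arrays, replicate 1 lowest, and the difference was -2.12 (95% interval -3.32 to -0.93, adjusted p = 0.0551). Cdca3, part of a ubiquitin ligase that degrades the mitotic inhibitor Wee1, was at 9.83, 9.68 and 9.60 against 8.18, 7.79 and 8.82 (-1.44, 95% interval -2.27 to -0.61, adjusted p = 0.0609). Another Cdca3 probe set showed a difference of 0.00 (adjusted p = 0.999 over probe sets). Cdc20, the APC/C activator, was at 12.34, 12.35 and 10.72 against 11.80, 10.12 and 9.45, and its groups overlapped because adult replicate 1 lay within the E18 range. The difference was -1.35 (95% interval -2.95 to 0.25, adjusted p = 0.305). The Cdc20 probe set used here has a name ending in _x_at, which Affymetrix gives to probe sets with probes that can match other sequences. A Cdc20 probe set without that suffix, at 10.46, 10.49 and 9.52 against 7.92, 8.46 and 8.33, did not overlap and fell (-1.92, SE 0.38, adjusted p = 0.0324 over probe sets).

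The chromosomal passenger complex corrects faulty attachments of chromosomes and then moves to the cleavage site. Of the 3 members that encode parts of it 1 fell, Aurkb, the kinase of the complex, from 10.05, 9.73 and 9.38 to 6.83, 7.08 and 7.83, with no overlap (5.55-fold, -2.47, SE 0.39, adjusted p = 0.0159). Birc5, which encodes survivin, was at 10.37, 10.38 and 9.88 against 6.54, 8.23 and 8.86. Adult replicate 1 was well below the other adult arrays, and the difference of -2.33 did not pass (95% interval -3.70 to -0.97, adjusted p = 0.0628). Cdca8, which encodes borealin, was at 12.31, 12.41 and 11.44 against 11.40, 9.82 and 10.46, narrowly without overlap (-1.49, 95% interval -2.58 to -0.40, adjusted p = 0.119). Its other 2 probe sets both fell when tested separately (-2.53, adjusted p = 0.0401, and -2.08, adjusted p = 0.022).

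Centromere and kinetochore genes fell in 3 of 5 cases and held both the largest and 2 of the smaller differences of the list. Nuf2, a subunit of the Ndc80 complex that grips microtubules, stood at 9.63, 9.63 and 9.69 in the E18 arrays and at 4.28, 2.96 and 7.37 in the adult arrays. Adult replicates 1 and 2 were under the floor and adult replicate 3 well above it, and the difference was -4.78 (SE 1.01, adjusted p = 0.0367), or -3.46 when values below the floor were raised to it. Without adult replicate 3 the difference was -6.03. Ndc80, the gene of its direct partner, was at 7.70, 7.76 and 8.14 against 7.94, 7.31 and 6.67. Its groups overlapped, with adult replicate 1 above E18 replicates 1 and 2, and the difference was -0.56 (95% interval -1.56 to 0.45, adjusted p = 0.505).

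The kinetochore motor Cenpe was at 8.82, 9.02 and 9.01 in E18 and 6.25, 5.53 and 7.71 in adult arrays, a 5.46-fold fall without overlap (-2.45, SE 0.57, adjusted p = 0.0496). When probe sets were tested separately, this probe set narrowly did not pass (adjusted p = 0.0502). Nor did the other Cenpe probe set (-2.67, adjusted p = 0.0506 over probe sets). Cenpf, a large kinetochore protein that peaks in G2 and mitosis, was at 9.63, 10.01 and 9.45 against 7.20, 6.52 and 8.27 and fell 5.15-fold (-2.37, SE 0.49, adjusted p = 0.0336). Its other tested probe set did not pass when tested separately (-0.50, adjusted p = 0.707). Nor did the mean of its probe sets (-1.05, adjusted p = 0.202), which takes in a dim one that did not pass the filter. Adult replicate 3 was the highest adult array for Cenpe and Cenpf. Cenpa, the histone variant that marks centromeres, was at 11.29, 11.15 and 10.61 against 10.74, 11.16 and 9.20. Adult replicates 1 and 2 lay within the E18 range, so the groups overlapped and the difference did not pass (-0.65, 95% interval -1.86 to 0.56, adjusted p = 0.525).

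**Figure D4:**
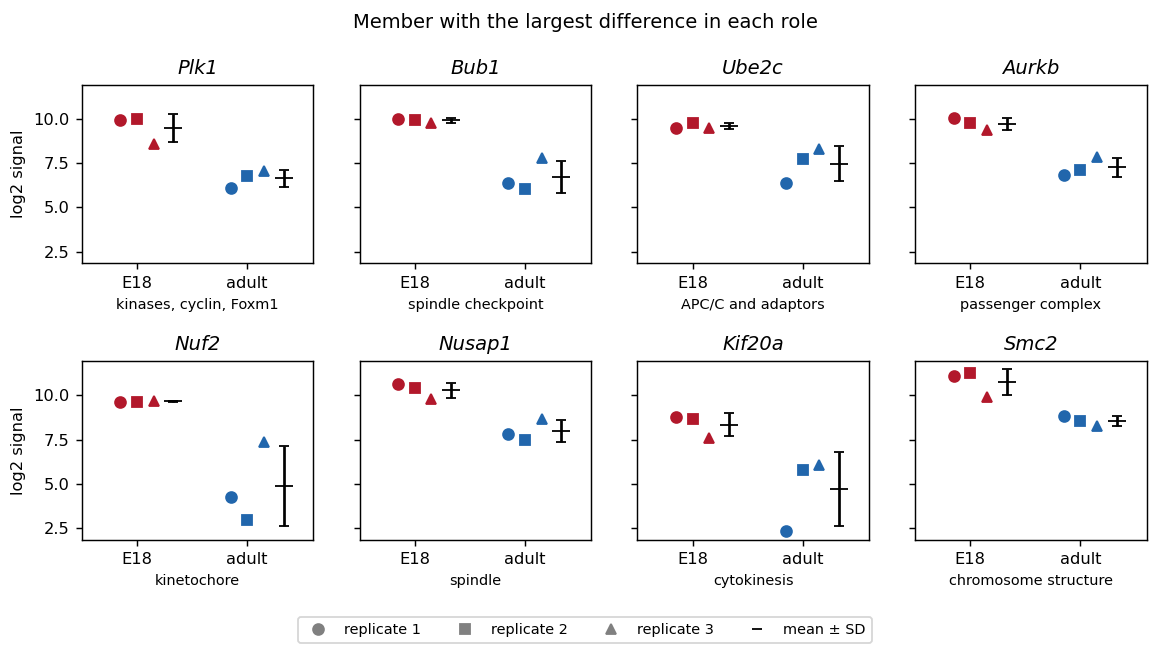
Log2 signal of the gene with the largest difference in each role on each of the 6 arrays, with replicates 1 to 3 as circle, square and triangle, E18 in red and adult in blue, and the mean ± SD (n = 3) of each group in black. In all 8 panels the adult arrays lie below the E18 arrays, and adult replicate 1 of Kif20a (2.32) and adult replicates 1 and 2 of Nuf2 (4.28 and 2.96) lie well under the other adult arrays of the same gene.

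Spindle motors and microtubule binding proteins fell in 3 of 6 cases, with differences in the narrow range of -2.29 to -1.38. Nusap1, which bundles spindle microtubules near chromosomes, was at 10.62, 10.41 and 9.80 against 7.82, 7.47 and 8.66 (4.9-fold, -2.29, SE 0.42, adjusted p = 0.0237). It did not pass with the mean of its probe sets (-1.53, adjusted p = 0.0665), which takes in a dim one that did not pass the filter. Kif11, the kinesin that pushes the spindle poles apart, was at 9.33, 9.53 and 8.54 against 7.02, 6.57 and 7.01 (4.82-fold, -2.27, SE 0.39, adjusted p = 0.021). Tpx2, which activates Aurora A on the spindle, was at 9.32, 9.54 and 9.02 against 6.73, 6.97 and 7.72 (4.45-fold, -2.15, SE 0.39, adjusted p = 0.0227). None of the 3 overlapped between groups. A second probe set each of Kif11 (-2.35) and Tpx2 (-2.77) also passed when tested separately, while another of Kif11 did not (-0.06, adjusted p = 0.97) and nor did the other 2 of Tpx2 (-0.65 and -0.88). Kif2c, which takes microtubules apart at the centromere, was at 9.82, 10.12 and 8.79 against 8.26, 6.71 and 7.43 and did not pass (-2.11, 95% interval -3.34 to -0.89, adjusted p = 0.061). The differences of Dlgap5 and Kif4, a spindle protein and a chromosome-bound kinesin, were -2.01 and -1.38, again without overlap and with adjusted p of 0.0576 and 0.0892.

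Genes of the central spindle and cytokinesis, the division of the cell body, had the most negative median of the 8 roles, -2.59, with 3 of 6 past the threshold. Prc1, which bundles the microtubules between separating chromosomes, was at 10.84, 10.83 and 10.09 in E18 and 7.65, 7.75 and 8.10 in adult arrays. All adult arrays lay far under the E18 arrays, and Prc1 had the lowest adjusted p of the list (6.75-fold, -2.75, SE 0.34, adjusted p = 0.00868). Its second probe set also fell (-3.40, adjusted p = 0.00544 over probe sets). Anln, the scaffold of the contractile ring, was at 10.31, 10.38 and 9.75 against 6.27, 6.30 and 7.80 (10.2-fold, -3.35, SE 0.49, adjusted p = 0.0118). With the mean of its probe sets, which takes in a dim one that did not pass the filter, the difference of Anln was -2.19 and did not pass (adjusted p = 0.0995). Ect2, which activates RhoA where the ring forms, was at 10.51, 10.56 and 10.23 against 8.44, 7.25 and 8.28 (5.43-fold, -2.44, SE 0.39, adjusted p = 0.0166). Prc1 and Ect2 passed in 17 of the 20 other fits that were run, the most of any member.

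Kif20a, a kinesin of the central spindle, was at 8.77, 8.68 and 7.58 against 2.32, 5.79 and 6.07. Adult replicate 1 was under the floor and far below the other adult arrays, and the difference of -3.61 did not pass (95% interval -5.93 to -1.30, adjusted p = 0.0831). It was -2.45 when values below the floor were raised to it. Kif23, the kinesin of the centralspindlin complex, was at 10.91, 11.02 and 10.57 against 10.29, 10.47 and 9.08, with a difference of -0.59 in replicates 1 and 2 and -1.49 in the third (-0.89 in all, 95% interval -1.86 to 0.08, adjusted p = 0.268). Racgap1, its partner in that complex, differed by -1.44 (adjusted p = 0.0938).

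Condensin and chromosome structure genes fell in 3 of 6 cases, with a median of -1.75. Mki67, whose protein coats mitotic chromosomes and is the Ki-67 proliferation marker, stood at 12.16, 12.36 and 12.05 against 10.26, 10.04 and 10.89, a 3.47-fold fall (-1.79, SE 0.31, adjusted p = 0.0214). Its rank was the 96.2nd to 97.0th percentile of the probe sets in the E18 arrays and the 85.8th to 91.2nd in the adult arrays. Top2a, the topoisomerase that untangles sister chromatids, was at 11.74, 11.72 and 11.59 against 10.01, 9.44 and 10.46 (3.28-fold, -1.72, SE 0.33, adjusted p = 0.0277). A second Top2a probe set did not pass when tested separately (-0.62, adjusted p = 0.529). Nor did the mean of the Top2a probe sets (-0.49, adjusted p = 0.522), which takes in one under the floor in all arrays. In the probe sets used, Mki67 and Top2a were lower in every adult array than in any E18 array.

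Smc2, an ATPase core of condensin, was at 11.10, 11.23 and 9.92 against 8.83, 8.56 and 8.24 and fell 4.62-fold (-2.21, SE 0.42, adjusted p = 0.0271). It did not pass with quantile normalised arrays (-2.05, adjusted p = 0.0546) or with arrays centred on their medians (-2.05, adjusted p = 0.0651). Its partner Smc4 was the single member not lower by its mean, at 12.02, 11.99 and 12.10 in the E18 and 13.27, 11.62 and 11.30 in the adult arrays (0.02, 95% interval -1.15 to 1.20, adjusted p = 0.981), and it turned to -0.21 with quantile normalised arrays and to -0.58 without adult replicate 1. Adult replicate 1, the array with the largest 3′ to 5′ difference, was the highest of all 6. The other 2 Smc4 probe sets were lower in every adult array but did not pass (-1.07, adjusted p = 0.0897, and -0.87, adjusted p = 0.204), and with the mean of its probe sets the difference was -0.64. The condensin subunits Ncapg and Ncaph differed by -1.78 (adjusted p = 0.0722) and -1.45 (adjusted p = 0.148). A second Ncaph probe set, whose name lacks the _x_at ending, fell (-2.0, SE 0.33, adjusted p = 0.0174 over probe sets).

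Probe sets of 1 gene thus did not always give the same call. The 39 members had 68 probe sets above the filter, of which 29 fell and 0 rose when tested separately, beside 3.51% of all 23674 probe sets that fell. The 68 include a Foxm1 probe set that fell and a Kif2c probe set that did not pass. Both were under the floor in all adult arrays and so passed the filter only through the E18 group. Of 20 members with more than 1 such probe set, the differences spanned more than 1 for 10. Among the members that fell, 10 had another tested probe set, and for 7 of them at least 1 of these did not pass. Among those that did not pass, 10 had another, and for 4 at least 1 of these passed. For Foxm1, among the 4, this was the probe set that was under the floor in all adult arrays. With probe sets named _x_at or _s_at replaced where a gene had another, which was tried after the data were seen, 22 members fell in place of 19, with Cdc20, Cdca8 and Ncaph added. Of all genes 4.77% fell in that fit, in place of 4.57%.

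Other genes of mitosis, from a list of 137 of which 127 were tested, were also mostly lower. Of the 127, 17 fell (13.4%) and 0 rose, beside 4.57% and 1.41% of all genes. Their median was -0.99, against -0.17 over all genes. Differences below 0 numbered 110 of the 127, beside 59.0% of all genes. The 110 include Ska1 (-2.64) and Ska3 (-1.43), which were under the floor in all adult arrays and so passed the filter only through the E18 group. Neither was past the threshold. The largest falls among those that passed were in Cdca7, a MYC-regulated chromatin protein (-2.85, SE 0.45, adjusted p = 0.0166), the kinetochore protein Zwilch (-2.64, SE 0.42, adjusted p = 0.0161), and Depdc1a (-2.61, SE 0.50, adjusted p = 0.0268). They were followed by Cep55, which directs the final cut between daughter cells (-2.36, SE 0.52, adjusted p = 0.0424), Trip13, an ATPase that disassembles checkpoint complexes (-2.33, SE 0.42, adjusted p = 0.0237), and the spindle protein Ckap2 (-2.27, SE 0.46, adjusted p = 0.0319). Cdca7 was at 9.54, 9.64 and 8.26 in E18 and 6.30, 6.37 and 6.23 in adult arrays, and Zwilch at 9.11, 8.92 and 8.91 against 5.85, 6.11 and 7.05, neither with overlap. The count was 10 with arrays centred on their medians, 0 without E18 replicate 1, 0 without E18 replicate 2, 5 without E18 replicate 3, 16 without adult replicate 1, 0 without adult replicate 2 and 52 without adult replicate 3, and in the fits with 0 the genes at an unadjusted limma p under 0.05 numbered 40, 44 and 52 of the list, beside 11.8%, 12% and 18% of all genes. Of all genes 3.95% fell with centred arrays, and 0.28%, 0.273%, 2.31%, 3.45%, 1.41% and 15.8% in the 6 fits without 1 array, in the order given. Of 42 DNA replication genes tested, 5 fell (11.9%) and 0 rose, beside 4.57% and 1.41% of all genes, and the median was -0.77. Uhrf1, which maintains DNA methylation behind the replication fork (-2.34, SE 0.52, adjusted p = 0.0459), and the replication helicase subunit Gins1 (-2.21, SE 0.42, adjusted p = 0.027) had the largest falls among the 5. No test compared the lists with each other.

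**Figure D5:**
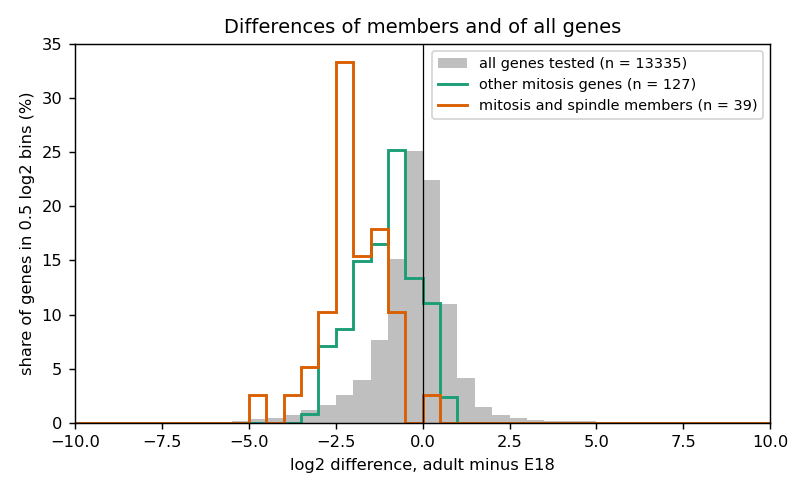
Share of genes (vertical axis, %) in bins of 0.5 of the log2 difference, adult minus E18 (horizontal axis), for all 13335 genes tested in grey, 127 other mitosis genes in green and the 39 mitosis and spindle genes in orange. The orange outline is highest in the bin that holds the members' median (-2.11), the green one lies between it and the grey bars (median -0.99), and the grey bars centre just under 0 (median -0.17).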

How the data were processed

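RNA from 6 samples (3 E18, 3 adult) was amplified in 2 cycles, per the labels' protocols, and hybridised to 1 array each with 45101 probe sets. The deposited signal intensities are MAS5 values, per the submitters' processing notes made with Affymetrix Expression Console, and each array's trimmed mean was 500.003 to 500.004. Genes were named through the platform annotation: 34945 probe sets had 1 symbol, 932 several and 9160 were unlisted. Of each gene's single-symbol probe sets the one with the highest mean log2 signal was used. A gene was tested if at or above the 40th percentile of its array on at least 3 of 6 arrays. Log2 signals were fitted with limma 3.58.1 (lmFit, eBayes with intensity trend, R 4.3.3). The procedure was also run on simulated data with independent arrays and equal spread in both groups. Those data lacked the wider adult spread and the closeness of E18 replicates 1 and 2 seen here. The number of arrays limits precision. Replicates are labelled biological, but nothing says that they came from separate animals, so p-values measure the spread between these samples.

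The members, gene lists, roles and markers were chosen with earlier results of these data known. Per-array values were given for each member at an adjusted p under 0.05 and, in each role, for the 2 brightest and the 1 with the largest difference; other members are given so that all are accounted for. Of the other mitosis genes up to 6 and of the replication genes up to 2 that passed were named, by size. Alternatives were other scalings, offsets, floors, probe set choices, blocks and left-out arrays.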

Additional observations from a re-analysis of the deposited data

How the results depend on the processing

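None of the 19 members that fell changed sign in any of 20 other fits. Counts past the threshold, in either direction, depended on the arrays used. Leaving out 1 array in turn, the members numbered 0 to 28, the other mitosis genes 0 to 52 and all genes 56 to 2711 (798 with all arrays), and the median member difference lay between -2.34 and -1.91. In replicates 1 and 2 alone these were 30, 52 and 3107, with a median of -2.49. With E18 replicates 1 and 2 averaged they were 0, 0 and 63. With the replicate block they were 7, 4 and 492, and 7 of the 19 members were kept. The deviations of same-numbered arrays correlated at 0.0364, -0.14 and -0.0579, so the numbers were not taken to pair the samples, although replicate 3 of both groups had high poly-A spike signals. The cause of these changes was not tested.

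Centring arrays on their medians gave 10 other mitosis genes and 19 members, where 3.95% of all genes fell, and moved the median of all genes from -0.17 to -0.02. Quantile normalisation moved it to -0.05 and gave 18 members, where 3.79% of all genes fell. With the mean of a gene's probe sets Bub1b, Cenpf, Nusap1, Anln and Top2a did not pass (-1.35, -1.05, -1.53, -2.19 and -0.49). For each of these 5 genes that mean takes in a dim probe set that did not pass the filter. Without the intensity trend Ccnb2, Mad2l1 and Cenpe did not pass. Without a filter on dim genes Ccnb2 and Cenpe did not pass, and with the floor at the 20th percentile Cenpe did not. The difference of Smc4 turned to -0.21 with quantile normalisation, -0.64 with the mean of its probe sets and -0.58 without adult replicate 1, and leaving out 1 array in turn it ranged from -0.58 to 0.41.

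Signals under the floor limit the adult levels of Nuf2, Dlgap5 and Kif20a, whose differences were -3.46, -1.40 and -2.45 with such values set to the floor.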

Other observations

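The complexes below, from the list of other mitosis genes, were grouped by name after their values were seen, and their differences are given as adult minus E18 (log2). Of 12 subunits of the APC/C 0 passed, with a median difference of -0.34 and a range from -1.49 (Cdc23) to 0.74 (Anapc13). Of 5 subunits of cohesin, the ring that holds sister chromatids together, 0 passed, with a median of -0.36. Of 5 subunits of augmin, which branches spindle microtubules, 0 passed, with a median of -0.83. Condensin subunits outside the members had a median of -1.27, with 1 of 4 past the threshold, and 13 CENP centromere proteins a median of -0.71, with 2 past it. Subunits of the Ndc80 complex and its anchors had a median of -1.11, with 1 of 7 past it, and 6 kinesins a median of -1.16, with 0 past it. These are limma calls over all genes tested, of which 4.57% fell and 1.41% rose, and no test compared the complexes. With groups this small, counts at or near 0 do not show that a complex was spared.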
